A study of Mus musculus with 24 samples.

Results

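Sprr1a, Ly6d and Ephb2 are 3 genes whose messenger RNA was far lower in mouse livers after gastric bypass or calorie restriction than after sham surgery. They were taken by name out of the 14995 genes counted, selected on their log2 fold changes in RYGB vs Sham and WM vs Sham, which earlier results on the same libraries placed among the largest falls. Liver RNA was counted in 24 libraries, all collected 20 weeks after surgery. RYGB mice had Roux-en-Y gastric bypass, in which a small stomach pouch is joined to a lower part of the small intestine (8 libraries). WM mice were weight-matched to them by calorie restriction (8 libraries). Sham mice had a sham operation (8 libraries). The study's title calls the mice obese. Strain, sex, age, diet and body weights were not used here, so that loss of weight is known only from how the groups were made. Nothing in the labels says whether each library is 1 animal, and p-values therefore measure the spread between libraries. Libraries keep the numbers of the labels.

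Small proline-rich proteins such as Sprr1a are cross-linked into the tough envelope under the surface of squamous epithelial cells, and Sprr1a is also known as a gene switched on by injury in nerve cells and heart muscle. Ly6d is a small protein of the Ly6 family that a lipid anchor holds on the outer cell surface, known from keratinocytes and from early B cells. Ephb2 is a receptor tyrosine kinase. Its ligands, the ephrins, sit in the membrane of the neighbouring cell, so that signals pass where cells touch, and Ephb2 is known for sorting cells along the intestinal crypt and for guiding axons. None of the 3 is a classic marker of healthy hepatocytes.

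In GENCODE M21 (GRCm38) all 3 genes are protein-coding and lie on the minus strand of different chromosomes. Sprr1a (ENSMUSG00000050359) spans chr3:92483952-92485895, within the cluster of cornified envelope genes. Ly6d (ENSMUSG00000034634) spans chr15:74762056-74763620, within the cluster of Ly6 genes. Ephb2 (ENSMUSG00000028664) spans chr4:136647539-136835988. No other annotated gene overlaps any of them on either strand. The libraries read the 3′ ends of messenger RNA over 50 bp. Of the 50-base stretches in the last 500 bases of their coding transcripts, 0 of 451 for Sprr1a, 0 of 451 for Ly6d and 0 of 1804 for Ephb2 also occur in a transcript of another gene.

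The stretch before the Sprr1a start is shown because it holds the binding motif of AP-1, the Jun and Fos family of factors, whose members are described further on. RefSeq (GRCm38.p6) gives a promoter for Sprr1a and Ephb2. The 250 bases before the Sprr1a start lie at chr3:92485882-92486131 on the minus strand. This RefSeq start lies inside the GENCODE span given above, so the last bases of the window fall within that span. Distances below are counted from the RefSeq start. Capitals mark the AP-1 motif (TGANTCA) and the TATA box (TATAAA).
Sprr1a: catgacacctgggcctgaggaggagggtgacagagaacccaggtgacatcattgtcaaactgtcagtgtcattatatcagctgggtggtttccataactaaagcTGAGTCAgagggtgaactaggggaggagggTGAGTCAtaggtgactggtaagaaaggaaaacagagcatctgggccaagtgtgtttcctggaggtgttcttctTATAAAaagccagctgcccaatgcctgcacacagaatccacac
Both AP-1 matches lie upstream of the TATA box, the first from 146 to 140 and the second from 116 to 110 bases before the start, and the TATA box lies from 43 to 38 bases before it. Of 32536 promoter windows of the same length, 6.73% hold at least 1 AP-1 motif on either strand and 0.338% at least 2, and 12.3% hold the TATA box. The Ephb2 window holds neither. Further motifs searched on both strands, those of TCF (ATCAAAG), RBPJ (TGGGAA) and ETS factors (ACAGGAAG), had 0 matches in either window and at least 1 match in 3.21%, 21.6% and 2.91% of all windows. A match is a string of letters and no evidence of binding.

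Levels are given as CPM, counts brought to 1 common library total, scaled by the trimmed mean of M-values (TMM), a scaling that takes most genes as unchanged. Library totals were 14002193 to 19958019 counts in RYGB, 14208021 to 22766612 in WM and 13659647 to 17391377 in Sham. Of the 14995 genes, 13121 had enough counts to be tested. The 16 hepatocyte markers summed to 101300 to 167000 CPM in RYGB, 96250 to 168400 CPM in WM and 42610 to 99010 CPM in Sham. Transcripts of pancreatic acinar cells stood out in RYGB 18 (3091 CPM over 18 genes), RYGB 19 (3078 CPM) and Sham 17 (1387 CPM), against at most 26.95 CPM in any other library, and the fold changes of the 3 genes and their relations in Sham are also given without them or without Sham 17.

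Sprr1a was close to silent in the livers of both weight-reduced groups. In RYGB libraries it had 0 counts in 5 libraries, 1 count each in RYGB 11 and RYGB 22, and 7 counts in RYGB 19. In WM libraries it had 0 counts in 6 libraries and 1 count each in WM 25 and WM 27. In Sham libraries the lowest count was 88, in Sham 17, and the highest 402. The summed counts were 9 in RYGB, 2 in WM and 2088 in Sham, and no RYGB or WM library reached any Sham library. In CPM this was 0.0743 ± 0.155 in RYGB, 0.0181 ± 0.0336 in WM and 14.2 ± 5.97 in Sham (SD, n = 8 each). Pooled over libraries, Sprr1a was 196-fold lower in RYGB than in Sham, with an exact 95% counting interval of 103 to 429. It was 892.5-fold lower in WM than in Sham, with an interval of 247 to 7375 that rests on the 2 WM counts. Such intervals cover counting error only. Of the 9 RYGB counts, 7 came from RYGB 19, which also held acinar transcripts, while RYGB 18, with a similar acinar level, had 0. Without RYGB 19 the other 7 RYGB libraries held 2 counts (0.0209 ± 0.0361 CPM, SD).

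Ly6d fell to a low level that every library still showed. Its lowest, median and highest values were 1.70, 3.17 and 15.0 CPM in RYGB, where RYGB 22 stood highest. They were 0.899, 4.53 and 16.5 CPM in WM, where WM 20 stood highest. They were 94.1, 222.6 and 309 CPM in Sham. The lowest Sham library was thus above the highest RYGB and WM libraries, and the groups did not overlap with Sham. Means were 4.73 ± 4.44 CPM in RYGB, 6.05 ± 5.41 CPM in WM and 216 ± 82.3 CPM in Sham (SD, n = 8 each), so that the spread relative to the mean was 93.9% in RYGB, 89.5% in WM and 38.0% in Sham. Raw counts ran from 27 to 236 in RYGB, from 13 to 237 in WM and from 1269 to 5793 in Sham, deep enough for counting error to be small beside these differences. Pooled, Ly6d was 45.4-fold lower in RYGB and 37.0-fold lower in WM than in Sham.

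Ephb2 kept a trace in some of the weight-reduced livers. It had counts in 5 of 8 RYGB libraries, with 11 at most in RYGB 19, and in 4 of 8 WM libraries, with 10 at most in WM 20. All 8 Sham libraries had it, with 51 to 322 counts. The lowest, median and highest levels were 0, 0.238 and 0.704 CPM in RYGB, 0, 0.0202 and 0.696 CPM in WM, and 2.20, 8.85 and 17.4 CPM in Sham. Again no RYGB or WM library reached the lowest Sham library. Means were 0.258 ± 0.264 CPM in RYGB, 0.189 ± 0.269 CPM in WM and 8.92 ± 5.21 CPM in Sham (SD, n = 8 each). Pooled, Ephb2 was 33.6-fold lower in RYGB than in Sham (exact 95% counting interval 23.8 to 49.0) and 44.9-fold lower in WM than in Sham (30.3 to 69.6).

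**Figure D1:**
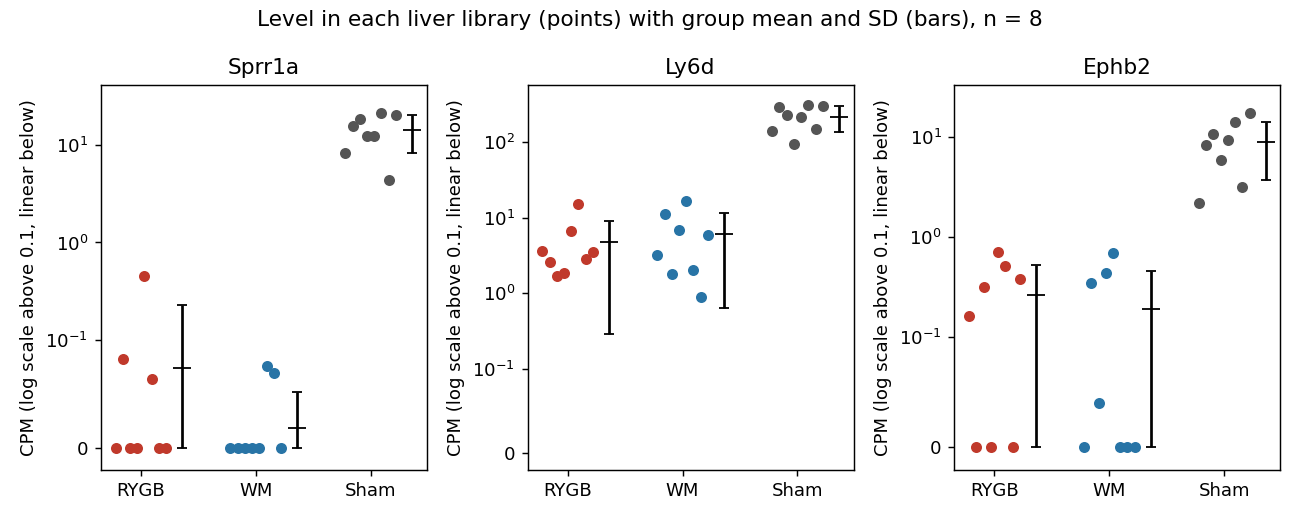
Level of Sprr1a, Ly6d and Ephb2 in CPM (vertical axis, log scale above 0.1 and linear below) in each of the 8 RYGB, 8 WM and 8 Sham libraries (points), with the group mean and SD (bars, ending at 0 where the SD is larger than the mean). The 8 Sham libraries lie above every RYGB and WM library for all 3 genes, and Sprr1a lies at 0 in 5 RYGB and 6 WM libraries.

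In the fit across all genes the log2 fold changes against Sham were -7.48 ± 0.56 for Sprr1a, -5.51 ± 0.54 for Ly6d and -5.06 ± 0.68 for Ephb2 in RYGB (± standard error). In WM they were -9.25 ± 0.66, -5.16 ± 0.53 and -5.47 ± 0.70 in the same order. For a gene near 0 these depend on the small count that the fit adds. Both comparisons use the same 8 Sham libraries. Of 13121 tested genes, 1 had a lower log2 fold change than Sprr1a in RYGB vs Sham and 0 in WM vs Sham. For Ly6d these numbers were 3 and 12, and for Ephb2 4 and 10. All 3 genes were among those lower than Sham at an adjusted p under 0.05 in edgeR, as were 11.0% of tested genes in RYGB and 15.0% in WM. Higher calls made up 12.7% and 16.5%, and calls in either direction 23.7% and 31.4%. The genes were chosen for this fall, so no test of it is given and nothing is read from the count. Nothing is read from their lack of overlap with Sham libraries either. The share of all tested genes without such overlap is not given here. With library totals in place of TMM, higher and lower calls over all genes moved to 754 and 3534 in RYGB vs Sham, against 1666 and 1443, and to 1049 and 3637 in WM vs Sham, against 2161 and 1964. Without RYGB 19 the log2 fold change of Sprr1a was -9.11 in RYGB vs Sham. Without the 3 acinar libraries Sprr1a, Ly6d and Ephb2 stood at -9.09, -5.53 and -5.36 in RYGB vs Sham and at -9.39, -5.23 and -5.59 in WM vs Sham. In bulk liver, fewer cells that express a gene and less RNA per cell cannot be told apart.

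The choice did not use the contrast between the weight-reduced groups itself. It took genes with large falls in both groups, which limited in advance how far these groups could differ. Nothing is therefore read from the lack of calls below. No member passed the test in RYGB vs WM, a comparison in which 1.49% of tested genes did (1.06% higher and 0.434% lower in RYGB). Ly6d had a log2 fold change of -0.35 ± 0.47 (edgeR quasi-likelihood test, adjusted p = 0.883), and the RYGB and WM libraries overlapped over most of their range. Ephb2 stood at 0.41 ± 0.77 (adjusted p = 0.929). Its pooled ratio of RYGB to WM had a counting interval of 0.772 to 2.35. Sprr1a stood at 1.77 ± 1.02 (adjusted p = 0.555), and its pooled ratio of RYGB to WM was 4.56, with a counting interval of 0.944 to 43.4. Without RYGB 19 its log2 fold change was 0.14 and its pooled ratio 1.16. Without WM 20 the sign for Ly6d turned, to 0.06. Sprr1a and Ephb2 were tested here only because Sham libraries lifted them over the filter on low counts, and at 9 against 2 and 33 against 25 counts only a large difference could have been seen. A p above the threshold does not show that the groups act alike.

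The trace of Ephb2 in weight-reduced livers is given here beside Ly6d library by library, a pairing picked after the values were seen and therefore not tested. In WM, the 3 libraries with most Ly6d, WM 20, WM 7 and WM 13, were also the 3 with most Ephb2, with 10, 5 and 9 counts. The other 5 WM libraries held 1 count of Ephb2 between them. WM 20 also stood apart in B lineage transcripts, with a summed level of 490.5 CPM over 16 markers, against at most 92.9 CPM in any other WM library. WM 7 and WM 13 held 54.3 and 67.6 CPM of these transcripts. RYGB 18 held 392.9 CPM of them, with 1.84 CPM of Ly6d and 0 counts of Ephb2. The part of B lineage transcripts in the Ly6d and Ephb2 levels was not tested. As a description, Pearson's r of the log2 levels across the 8 WM libraries was 0.813 and Spearman's rho 0.610, and r was 0.713 without WM 27 and WM 20, the libraries farthest from the median of Ly6d. In RYGB the leading libraries for both genes were RYGB 22 and RYGB 19. There r was 0.634 and rho 0.659 over 8 libraries, and r was 0.202 without those 2. RYGB 19 held acinar transcripts, whose part in the RYGB relation was not tested.

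**Figure D2:**
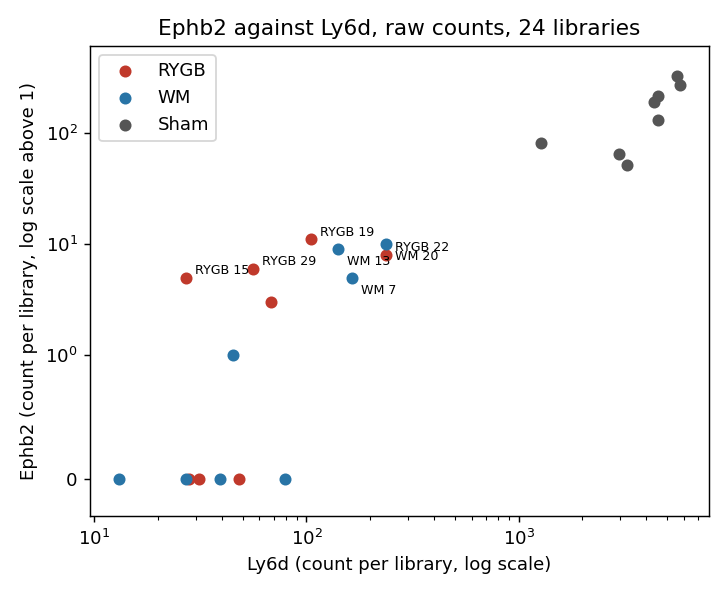
Ephb2 against Ly6d as raw counts in each library (both axes on log scales, the vertical one linear below 1) for RYGB (red), WM (blue) and Sham (grey). Weight-reduced libraries with 5 or more Ephb2 counts are named. The Sham libraries hold 1269 to 5793 Ly6d counts and the RYGB and WM libraries 13 to 237, and the libraries without Ephb2 are among those with 13 to 79 counts of Ly6d.

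In Sham livers, where all 3 genes were well counted, their levels also went together. Sham 16 and Sham 23 stood highest for all 3, and Sham 2, Sham 6 and Sham 17 were the lowest 3 for each. Sprr1a ran from 4.38 to 21.5 CPM over Sham libraries, a 4.90-fold range, Ly6d over a 3.29-fold range and Ephb2 over a 7.90-fold range. Sprr1a and Ephb2 gave r = 0.869 (n = 8, two-sided exact permutation p = 0.00474, adjusted p = 0.0795) and rho = 0.929 (exact permutation p = 0.00223, adjusted p = 0.0402). Ly6d and Ephb2 gave r = 0.739 (n = 8, exact permutation p = 0.0370, adjusted p = 0.166) and rho = 0.833 (exact permutation p = 0.0154, adjusted p = 0.0923). Sprr1a and Ly6d gave r = 0.650 (n = 8, exact permutation p = 0.0762, adjusted p = 0.229) and rho = 0.881 (exact permutation p = 0.00724, adjusted p = 0.0652). Thus only the rank correlation of Sprr1a with Ephb2 passed adjustment over the 18 relations computed in Sham. Without Sham 17, the library with acinar transcripts and the lowest for Sprr1a, that pair gave rho = 0.929 (n = 7, exact permutation p = 0.00675, adjusted p = 0.0607), which no longer passed, and r = 0.939 (exact permutation p = 0.00258, adjusted p = 0.0464), which did. Sprr1a with Ly6d then gave rho = 0.929 and Ly6d with Ephb2 rho = 0.821 (n = 7, exact permutation p = 0.00675 and 0.0341, adjusted p = 0.0607 and 0.205). Without the 2 libraries farthest from the median of the first gene, r was 0.858, 0.878 and 0.735 for the pairs in the order given (n = 6, exact permutation p = 0.0347, 0.0333 and 0.0514).

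**Figure D3:**
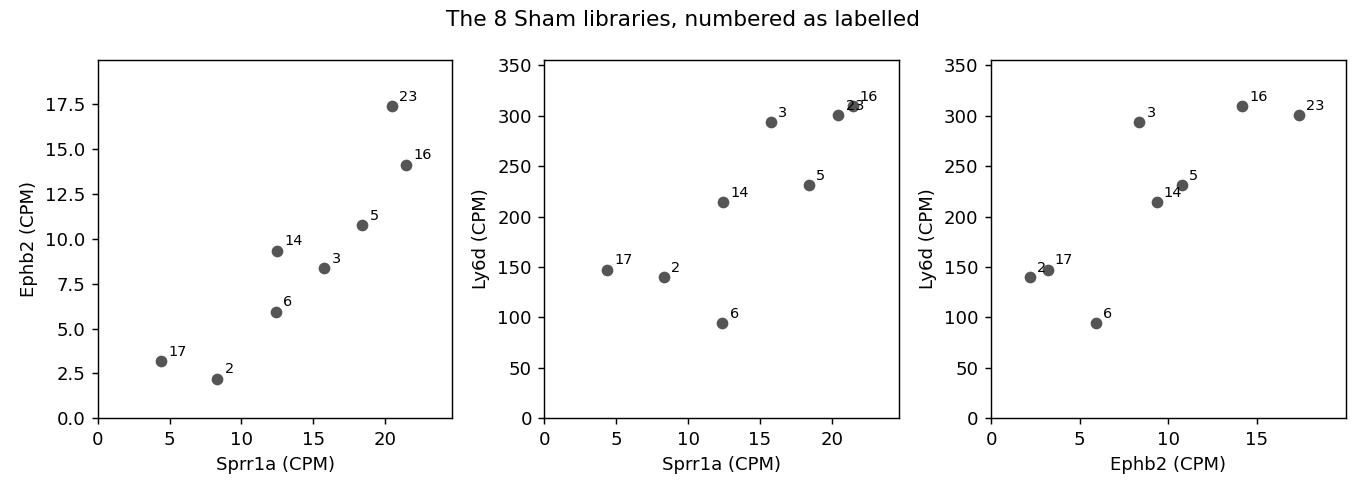
Levels in CPM of the 3 pairs of genes in the 8 Sham libraries, numbered as labelled. Libraries 16 and 23 are highest for all 3 genes, and Sprr1a and Ephb2 rank the libraries most alike (rho 0.929).

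The other 15 relations in Sham set each gene against the mean log2 level of a list. The list of lipid droplet and fatty liver genes gave the largest r of these for each gene, 0.849 for Ly6d (n = 8, exact permutation p = 0.00883, adjusted p = 0.0795), 0.774 for Ephb2 (exact permutation p = 0.0256, adjusted p = 0.154) and 0.683 for Sprr1a (exact permutation p = 0.0570, adjusted p = 0.205), with rho of 0.714, 0.667 and 0.619 (exact permutation p = 0.0576, 0.0831 and 0.115, adjusted p = 0.259, 0.299 and 0.345). Without the 2 farthest libraries r was 0.797, 0.470 and 0.451 (n = 6, exact permutation p = 0.0694, 0.338 and 0.401). None passed adjustment. For matrix, macrophage, cholangiocyte and hepatocyte lists r ran from -0.435 to 0.651 (n = 8, adjusted p of 0.259 to 0.989 by exact permutation).

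Ranked by Pearson's r of log2 levels over all 24 libraries, a measure that carries the shared gap to Sham, the 5 genes most like Sprr1a out of 11812 were A4gnt, which caps gastric mucin sugars (0.968), the apolipoprotein Apoa4 (0.944), the AP-1 subunit Jun (0.937), the actin-binding tropomyosin Tpm1 (0.934) and the oxysterol-binding protein Osbpl3 (0.933). A4gnt averaged 0.0633 ± 0.157 CPM in RYGB, 0.0173 ± 0.0489 CPM in WM and 1.89 ± 1.13 CPM in Sham. Ly6d was most like Ephb2 (0.953) and Sprr1a (0.931), then Ccdc120 (0.931), the lipid droplet protein Cidec (0.929) and Apoa4 (0.925). Ephb2 was most like Ly6d (0.953), then Ccdc120 (0.929), Sprr1a (0.926), Cidec (0.919) and the glutathione transferase Gsta5 (0.914). With Spearman's rho, 1, 1 and 2 of these 5 genes came back for Sprr1a, Ly6d and Ephb2. Ephb2 was again first for Ly6d (0.880), whereas Sprr1a dropped to place 328 for Ly6d and Ly6d to place 347 for Sprr1a (0.681).

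After the group means were taken out, Ephb2 was still the second most like Ly6d of 11812 genes (r = 0.718), behind the stress-induced gene Ier3 (0.732) and ahead of Gask1a (0.713), the centromere histone Cenpa (0.697) and the cell cycle repressor E2f7 (0.696). Likewise Ly6d was the third most like Ephb2, behind Arl16 (0.742) and Fndc10 (0.733) and ahead of Ccno (0.715) and Sectm1a (0.704). Sprr1a did not share this. Its r was 0.200 with Ly6d and 0.417 with Ephb2, and the genes most like it were Rabggta (0.827), Osbpl5 (0.741), Pex3 (0.671), Stat5a (0.670) and Comtd1 (0.663). In 11 of the 16 weight-reduced libraries Sprr1a has 0 counts. By Spearman's rho on the same deviations, 2, 1 and 4 of these 5 genes came back for Sprr1a, Ly6d and Ephb2, with Ephb2 in place 3 for Ly6d and Ly6d in place 5 for Ephb2, so that most of the genes named for Sprr1a and Ly6d depend on the measure.

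Part of the ligands and fellow receptors of Ephb2 fell too. As background for this and the lists that follow, 12.7% of all tested genes rose and 11.0% fell in RYGB vs Sham, and 16.5% rose and 15.0% fell in WM vs Sham. With library totals these shares were 5.75% and 26.9% in RYGB, and 7.99% and 27.7% in WM. Of 8 ephrins, 4 were tested, and 3 fell in RYGB vs Sham and 2 in WM vs Sham, with 0 higher (medians of -0.83 and -0.83, against -0.015 and -0.008 over all tested genes, in log2). Efnb1, a transmembrane ligand of Ephb2, had a lowest, median and highest level of 15.9, 34.3 and 53.5 CPM in RYGB, 14.0, 21.8 and 44.0 CPM in WM, and 36.6, 59.4 and 93.1 CPM in Sham. It fell by 0.84 ± 0.26 on the log2 scale in RYGB vs Sham (edgeR adjusted p = 0.0168) and by 1.21 ± 0.26 in WM vs Sham (adjusted p = 0.000681), with some overlap of the libraries. Efnb2, another transmembrane ligand, fell by 1.72 ± 0.50 in RYGB vs Sham (adjusted p = 0.0123) and stood at -0.80 ± 0.48 in WM vs Sham, which did not pass (adjusted p = 0.213). Efna5, a lipid-anchored ephrin that also binds Ephb2, fell by 0.83 ± 0.25 in RYGB vs Sham (adjusted p = 0.0167) and by 0.86 ± 0.25 in WM vs Sham (adjusted p = 0.0102). Efna1 averaged 53.1 ± 14.5 CPM in RYGB, 48.2 ± 13.9 CPM in WM and 44.5 ± 12.8 CPM in Sham and did not pass (adjusted p = 0.372 and 0.698 against Sham).

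Of 13 other Eph receptors, 6 were tested, and the same 2, Epha2 and Epha3, fell against Sham in both comparisons, with 0 higher (medians of -0.48 and -0.37). Epha2, a receptor of epithelial cells, had a lowest, median and highest level of 1.89, 2.81 and 3.63 CPM in RYGB, 0.302, 2.69 and 7.94 CPM in WM, and 5.29, 8.21 and 13.2 CPM in Sham. WM libraries overlapped with Sham. Nothing is read from the lack of overlap in RYGB, as the share of all tested genes without it is not given. Its log2 fold change was -1.71 ± 0.33 in RYGB vs Sham (adjusted p = 0.000319) and -1.52 ± 0.32 in WM vs Sham (adjusted p = 0.000694). Epha3 averaged 0.711 ± 0.521 CPM in RYGB, 0.669 ± 0.611 CPM in WM and 2.56 ± 1.32 CPM in Sham, with a log2 fold change of -1.84 ± 0.58 in RYGB vs Sham (adjusted p = 0.0204) and -1.92 ± 0.58 in WM vs Sham (adjusted p = 0.0125). Its RYGB call was lost without the 3 acinar libraries or without Sham 2. Epha1, at 6.71 ± 3.56 CPM in RYGB, 7.12 ± 3.25 CPM in WM and 4.52 ± 1.61 CPM in Sham, Epha7 and Ephb4 did not pass in either. For 34 intracellular partners of Eph receptors, 33 tested, 3 rose and 4 fell in RYGB vs Sham, and 2 rose and 5 fell in WM vs Sham. The shares that fell, 12.1% and 15.2%, were close to those over all tested genes, and with library totals 0 rose and 13 fell in RYGB and 1 rose and 13 fell in WM. Among those called, the kinases Limk1 (-1.48 in RYGB and -1.73 in WM, log2 against Sham) and Rock2 (-0.99 and -1.07), both regulators of actin, fell in both. Ngef, an exchange factor downstream of Eph receptors, rose by 1.38 ± 0.20 in WM vs Sham (edgeR adjusted p = 9.14e-06). It also rose in RYGB vs Sham, by 0.56 ± 0.20 (adjusted p = 0.0443), a call that held in 13 of 25 alternatives. Ngef was lower in RYGB than in WM (log2 fold change -0.82, adjusted p = 0.0285), a call lost in 9 of 25 alternatives.

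**Figure D4:**
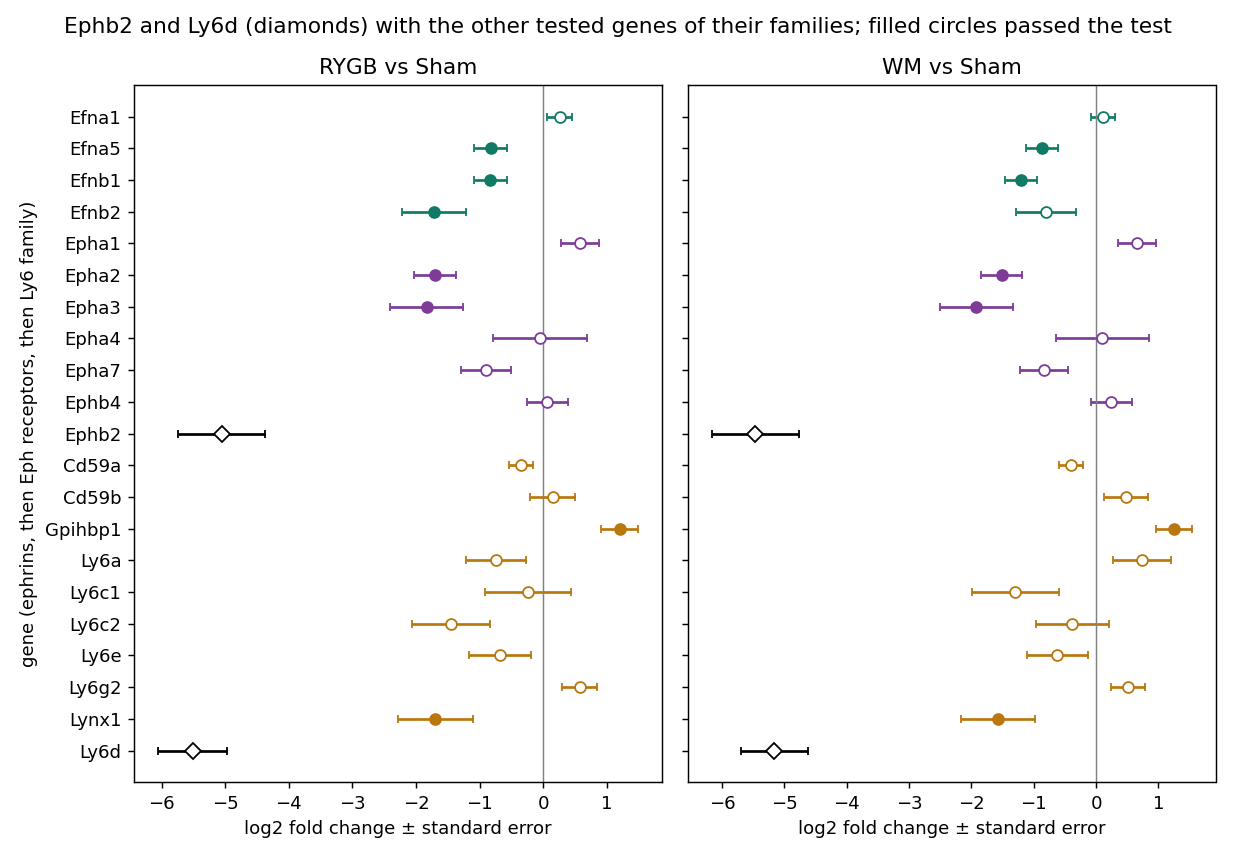
Log2 fold change ± standard error (horizontal axis) in RYGB vs Sham (left) and WM vs Sham (right) for Ephb2 and Ly6d (diamonds, given as a description) and the tested ephrins (green), Eph receptors (purple) and Ly6 family genes (orange). Filled circles passed the test at an adjusted p under 0.05, and no family gene lies below -2, while Ephb2 and Ly6d lie below -5.

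Of 38 other Ly6 and uPAR family genes, 9 were tested, and 1 rose and 1 fell in each comparison with Sham (medians of -0.35 in RYGB and -0.38 in WM). At 11.1% in each direction this was close to or below the share over all tested genes, and with library totals 1 rose and 3 fell in RYGB and 1 rose and 2 fell in WM. The one that rose was Gpihbp1, the carrier of lipoprotein lipase across capillary walls, at 24.2 ± 7.20 CPM in RYGB, 25.1 ± 10.3 CPM in WM and 10.6 ± 6.17 CPM in Sham. Against Sham it stood 1.19 higher on the log2 scale in RYGB (adjusted p = 0.00316) and 1.24 higher in WM (adjusted p = 0.00159). The one that fell was Lynx1, which acts on acetylcholine receptors and lies 9010 bp from Ly6d. It had a lowest, median and highest level of 0.190, 0.412 and 0.986 CPM in RYGB, 0, 0.446 and 1.42 CPM in WM, and 0.518, 1.33 and 2.70 CPM in Sham. Its log2 fold change was -1.70 ± 0.59 in RYGB vs Sham (adjusted p = 0.0354) and -1.58 ± 0.59 in WM vs Sham (adjusted p = 0.0412), calls lost in 10 of 24 alternatives each. The more abundant Cd59a, Ly6e and Ly6g2 did not pass (adjusted p of 0.115 to 0.349 against Sham). Among the 8 tested genes within 500 kb of Ly6d, Lynx1 was the one called. Near Ephb2, 13 genes were tested. Of these the complement gene C1qb was higher in both comparisons, Wnt4 was lower in RYGB and Luzp1 was lower in WM.

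Of 48 keratinocyte and cornified envelope genes listed, 6 are among the genes analysed here, Lor, Krt10, Ppl, Tgm1, Sfn and Perp, and none is another Sprr gene. No gene analysed had fewer than 72 counts summed over the 24 libraries, so an absent gene may still have had some counts. Perp, a junction protein also found outside squamous cells, was by far the most abundant and averaged 88.3 CPM in RYGB, 94.7 CPM in WM and 99.0 CPM in Sham, while each of the other 5 averaged under 9 CPM in every group. In RYGB vs Sham 0 of the 6 passed, with a median of 0.24 that was -0.11 with library totals. In WM vs Sham the cross-linking enzyme Tgm1 rose (log2 fold change 1.59, adjusted p = 0.0101) and the plakin Ppl fell (-0.96, adjusted p = 0.00208), while Ppl was higher in RYGB than in WM (1.24, adjusted p = 0.00281). Of 45 protein-coding genes within 500 kb of Sprr1a, 2 are analysed here and 0 were called.

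The next list holds genes known as inducers or companions of Sprr1a after injury, and it moved both ways. Of 22 tested AP-1 and gp130 cytokine pathway genes, 1 rose and 6 fell in RYGB vs Sham, and 3 rose and 8 fell in WM vs Sham (medians of -0.27 and -0.56). The shares that fell were 27.3% and 36.4%, and with library totals 1 rose and 11 fell in RYGB and 1 rose and 10 fell in WM. The interleukin 11 receptor chain Il11ra1 rose in both, by 1.12 in RYGB (adjusted p = 0.000317) and 1.19 in WM (adjusted p = 0.000108) on the log2 scale. In WM the receptor Lifr (0.82) and the cytokine feedback inhibitor Socs3 (1.37) also rose. Il6st, which encodes gp130, fell in both, at -0.90 in RYGB (edgeR adjusted p = 0.000115) and -0.93 in WM (adjusted p = 4.83e-05). Stat3 fell in WM (-0.79, adjusted p = 0.0038) and did not pass in RYGB (-0.16, adjusted p = 0.615). Junb, another AP-1 subunit, averaged 47.9 CPM in RYGB, 51.6 CPM in WM and 38.0 CPM in Sham and did not pass (adjusted p = 0.381 and 0.210). Fos averaged 0.893 CPM in RYGB, 0.551 CPM in WM and 1.38 CPM in Sham and did not pass (edgeR adjusted p = 0.528 and 0.154). Jun is another member of the AP-1 family, whose motif stands in the Sprr1a promoter shown. It had a lowest, median and highest level of 9.81, 16.6 and 28.0 CPM in RYGB, 9.26, 14.9 and 17.8 CPM in WM, and 36.1, 49.8 and 64.7 CPM in Sham. Jun fell by 1.56 ± 0.19 on the log2 scale in RYGB vs Sham (edgeR adjusted p = 7.13e-07) and by 1.81 ± 0.19 in WM vs Sham (adjusted p = 4.59e-08). Atf3, a stress-induced partner of Jun, fell by 1.79 ± 0.47 (adjusted p = 0.00563) and 2.61 ± 0.48 (adjusted p = 0.000154). The cell cycle inhibitor Cdkn1a fell to 4.57 ± 2.06 CPM in RYGB and 2.65 ± 1.95 CPM in WM, against 40.8 ± 27.4 CPM in Sham (edgeR adjusted p = 7.27e-06 and 3.32e-07). A link of any of these genes to the level of Sprr1a was not tested. A further list holds WNT targets of the intestinal crypt, where Ephb2 is one, together with hepatocyte genes such as Cyp2e1. Of its 19 tested genes, 2 rose and 3 fell in RYGB vs Sham, and 4 rose and 4 fell in WM vs Sham. The shares that fell were 15.8% and 21.1%. With library totals 1 rose and 4 fell in RYGB, and 2 rose and 6 fell in WM. The receptor Tnfrsf19 (-1.80 and -1.74) and cyclin Ccnd1 (-1.04 and -1.54) fell in both. Cyp2e1, a pericentral hepatocyte gene under WNT control, rose in both (1.48 and 1.61). Notum also rose in both (0.77, edgeR adjusted p = 0.042, and 0.92, adjusted p = 0.0123), and its RYGB call held in 15 of 25 alternatives. In RYGB Prox1 fell (-0.61). In WM Rnf43 (0.88) and Nkd1 (0.96) rose, and Sox4 (-1.37) and Sox9 (-0.97) fell.

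Markers of other cells that the tissue could hold moved as follows beside the 3 genes. Of 14 tested cholangiocyte and progenitor markers, 1 fell in RYGB vs Sham and 5 in WM vs Sham, and the 15 analysed summed to 218 to 560 CPM in RYGB, 145 to 350.5 CPM in WM and 310 to 655 CPM in Sham. Of 8 tested genes of the mesothelial list, 0 passed in RYGB vs Sham and 1, Krt8, fell in WM vs Sham. Its most abundant members, Krt18 and Krt8, are keratins of hepatocytes as well, and the more specific Msln and Wt1 averaged at most 0.808 CPM in any group. Among 13 tested B lineage markers, 1 rose in RYGB vs Sham, and 2 rose and 1 fell in WM vs Sham, with sums of 49.1 to 393 CPM in RYGB, 18.8 to 490.5 CPM in WM and 24.0 to 69.6 CPM in Sham; without the 3 acinar libraries the highest RYGB sum was 139 CPM. Of 27 tested matrix and stellate cell genes, 14 fell in RYGB and 15 in WM. With library totals these were 19 and 21. Of 21 macrophage genes, 7 fell and 5 rose in RYGB, and 10 fell and 2 rose in WM, while with library totals 11 fell and 0 rose in RYGB, and 11 fell and 1 rose in WM. Of 24 lipid droplet genes, 9 fell and 1 rose in RYGB, and 12 fell and 1 rose in WM, while with library totals 11 and 16 fell and 0 rose. Of 16 hepatocyte markers, 10 rose and 2 fell in RYGB, and 11 rose and 2 fell in WM, while with library totals 8 and 6 rose and 2 fell in each. Of the acinar list, 2 genes were tested, and 1 rose in RYGB, and 1 rose and 1 fell in WM. The part of these cells in the levels of Sprr1a, Ly6d and Ephb2 was not tested.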

How the data were processed

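Per the labels' protocols, RNA of snap-frozen livers was isolated with Trizol and columns, and QuantSeq libraries, which prime at the 3′ end of messenger RNA, were read for 50 bp. Counts were therefore not divided by gene length. The authors deposited whole-number counts per Ensembl gene, and a normalized signal in which each count is divided by 1 factor per library. The 14995 genes given each held at least 72 counts over the 24 libraries, so that genes with fewer are missing from every list. DESeq2 1.34 and R 4.1.2 appear in the submitters' processing notes. The sources used here give no aligner, counting program, strand setting or genome build. Deposited coordinates were not used, and positions come from GENCODE M21 (GRCm38).

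Counts were fitted in R 4.3.3 with edgeR 4.0.16 (filterByExpr, TMM, quasi-likelihood test, all 24 libraries, no covariate, Benjamini-Hochberg over 13121 genes, calls at an adjusted p under 0.05), tested on simulated data. Genes kept the deposited names, or GENCODE's for 1652 without one. Likeness used log2 CPM with a prior count of 2. Every pair of libraries within a group was further apart than sampling noise (smallest chi-square per degree of freedom 24.9), and none was treated as a duplicate. Alternatives used DESeq2 1.42.0, limma 3.58.1, other scalings and filters, a pseudocount of 1 on the deposited values, and left-out libraries. Correlations used scipy 1.17.1 with exact permutation of pairings. Members and lists were chosen with earlier results of these data known, and lists came from textbook knowledge. Named genes were the 3 members, the 5 most like each by either measure, up to 4 called genes of each list and comparison with the largest change, and the 4 most abundant genes of the Ly6, Eph and ephrin families. Of these, the text names those of the pathways of the 3 genes. Lists of other cells were used as counts and sums. Genes near Ly6d and Ephb2, Krt8, Krt18, Msln, Wt1, Perp and Junb were picked after their values were seen. So were Fos, Il11ra1, Lifr, Socs3, Il6st, Stat3, Prox1, Rnf43 and Nkd1, and the pairing of Ly6d with Ephb2 in WM and RYGB.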

Additional observations from a re-analysis of the deposited data

Results flagged for a closer look

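Among the 8 RYGB libraries, Sprr1a in RYGB 19, at 0.448 CPM (7 counts), and Ly6d in RYGB 22, at 15.0 CPM, stood far from the other libraries of the group. The gap to the next library was 0.815 of the group's whole range for Sprr1a and 0.623 for Ly6d, each above Dixon's 95% critical value for 8 samples. For normally distributed levels, about 1 in 20 groups is picked out this way by chance. Sprr1a, with counts in 3 of these 8 libraries, and Ly6d, with a spread of 93.9% of its mean, need not follow that rate. The lowest and highest library of each group were checked for all 3 genes. RYGB 19 also held pancreatic acinar transcripts, at 3078 CPM, and RYGB 22 held 26.95 CPM of them. Whether this bears on either value was not tested.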

How the results depend on the processing

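Against Sham, Sprr1a, Ly6d and Ephb2 kept their direction in all alternatives run, with log2 fold changes in RYGB of -9.11 to -7.05, -6.06 to -5.38 and -5.62 to -4.85, and in WM of -9.78 to -7.42, -5.64 to -5.00 and -6.34 to -5.26. In RYGB vs WM none passed in any alternative, with adjusted p of 0.391 to 0.986 for Sprr1a, 0.477 to 0.992 for Ly6d and 0.808 to 0.996 for Ephb2. Leaving out single libraries gave -0.88 to 0.06 for Ly6d, the sign turning without WM 20 (0.056). Sprr1a and Ephb2 were not tested with RYGB and WM fitted alone, where they fell under the filter. Genes called numbered 121 in RYGB vs WM with these groups alone and 361 with DESeq2, against 196, and 5018 in RYGB vs Sham with limma-voom, against 3109. Single left-out libraries gave 136 to 257, 2648 to 3222 and, in WM vs Sham, 3645 to 4299. Library totals moved the median of all genes to -0.36 in RYGB vs Sham and -0.34 in WM vs Sham, so that the medians of ephrins (-1.18 and -1.14) and Eph receptors (-0.87 and -0.73) stayed below it. In Sham, r of Ly6d with Ephb2 was 0.715 without Sham 17 (exact permutation p = 0.0679), and in WM it was 0.713 without the 2 farthest libraries. Weak r of members with lists changed sign: without the 2 farthest libraries to 0.411, 0.756 and -0.134 for Sprr1a with macrophage, cholangiocyte and hepatocyte lists, and to 0.315, 0.601 and -0.239 for Ephb2 with matrix, cholangiocyte and hepatocyte lists. Without Sham 17 they changed to -0.051 and 0.390 for Sprr1a with matrix and cholangiocyte lists, -0.056 for Ly6d with macrophages and 0.198 for Ephb2 with cholangiocytes, and on the deposited values to -0.001 for Ly6d with macrophages. The causes were not tested. No paired analysis was possible because the groups share no library number. Depth limits Sprr1a and Ephb2 in RYGB and WM to a few counts per library.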
